A study of Rattus norvegicus with 33 samples.

Results

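The B vitamin subsystems of the cecal microbiota were the functional categories whose name contained thiamin, riboflavin, folate, cobalamin, B12, biotin, pyridox, pantothen, coenzyme A biosynthesis or NAD and NADP. The rule used names and no measured value, and it took 26 of the 1057 subsystems of the deposited function table. A subsystem is a set of genes with a shared role, and its value is the number of shotgun DNA reads assigned to it. The reads came from the contents of the cecum, the first section of the large bowel, of 33 rats aged 14 to 15 weeks. The groups were 10 female spontaneously hypertensive rats (SHR), 9 female Wistar Kyoto rats (WKY), 7 male SHR and 7 male WKY. SHR rats are inbred and become hypertensive as they age, WKY is the strain it is usually compared with, and the labels name no treatment. Each library was 1 rat, so the errors measure the spread between rats. Cage and litter are not in the labels, and p-values would be too small if rats of a group shared them. The labels number SHR and WKY rats in separate runs. Whether the numbers follow the order of processing is not given, and anything that follows them cannot be told apart from strain.

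B vitamins are precursors of enzyme cofactors: thiamin gives thiamin pyrophosphate, riboflavin gives FMN and FAD, niacin gives NAD, pantothenate gives coenzyme A, and pyridoxin gives pyridoxal phosphate. Biotin carries carboxyl groups, folates carry one-carbon units, and cobalamin (vitamin B12) is made by bacteria and archaea alone. Gut bacteria differ in which of these they build and which they take up from neighbours, and Lactobacillus species are known to need several of them from their surroundings. The values here are gene reads, so they describe the capacity encoded in the community and not the amount of any vitamin. A lower share of a subsystem can come with fewer bacteria that carry it, with fewer gene copies in each, or with more of other genes, and in relative read counts these cannot be told apart.

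Of the 26 subsystems, 24 had at least 1 read and 19 reached a normalized value of 10 in at least 7 rats. All 19 were read in all 33 rats. The other 7 carry names of plant pathways or of rare genes. Riboflavin, FMN and FAD biosynthesis in plants and Thiamin biosynthesis in plants had 0 reads in all 33 rats, which allows at most 0.874 reads per 1000000 function reads over WKY females and at most 1.43 over SHR males, the groups with the most and the fewest reads in sum. Pantothenate and CoA biosynthesis in plants had 1 read in all, Folate-mediated one-carbon metabolism in plants had 3, B12 duf71 had 25, Pyridoxine (vitamin B6) biosynthesis in plants had 44 and FolateExerciseMaizeClassVDC had 91. These limits cover counting error only. No strain or sex comparison called any of the 7.

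Libraries held 95952 to 489862 reads assigned to a function, and SHR libraries were the shallower ones. Their medians were 214911 reads in SHR females and 396240 in WKY females, and 315719 in SHR males and 382975 in WKY males. The 26 subsystems together took 4.01 ± 0.0933% of function reads (mean ± SD) in SHR females and 3.88 ± 0.180% in WKY females. They took 3.81 ± 0.172% in SHR males and 3.89 ± 0.240% in WKY males. The group means of the summed share thus lay between 3.81% and 4.01%, and a read may count in several subsystems.

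The vitamins differed in how their summed shares lay between the strains. Riboflavin subsystems took 0.736 ± 0.0374% of function reads in SHR females and 0.652 ± 0.0404% in WKY females. Biotin subsystems took 0.579 ± 0.0756% in SHR males and 0.469 ± 0.107% in WKY males. Folate subsystems took 0.615 ± 0.0206% in SHR males and 0.718 ± 0.102% in WKY males. Riboflavin in females and biotin in males thus lay higher in SHR, folate lay lower, and these sums are given without a test. The share of cobalamin subsystems had opposite orders in the sexes: it was 0.455 ± 0.0520% in SHR females and 0.398 ± 0.0811% in WKY females, against 0.389 ± 0.0436% in SHR males and 0.453 ± 0.0977% in WKY males. Thiamin, NAD and pyridoxin shares differed between the strains by less than 1 SD of the WKY group in males. In females the thiamin share was 0.668 ± 0.0251% in SHR and 0.684 ± 0.0151% in WKY.

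**Figure D1:**
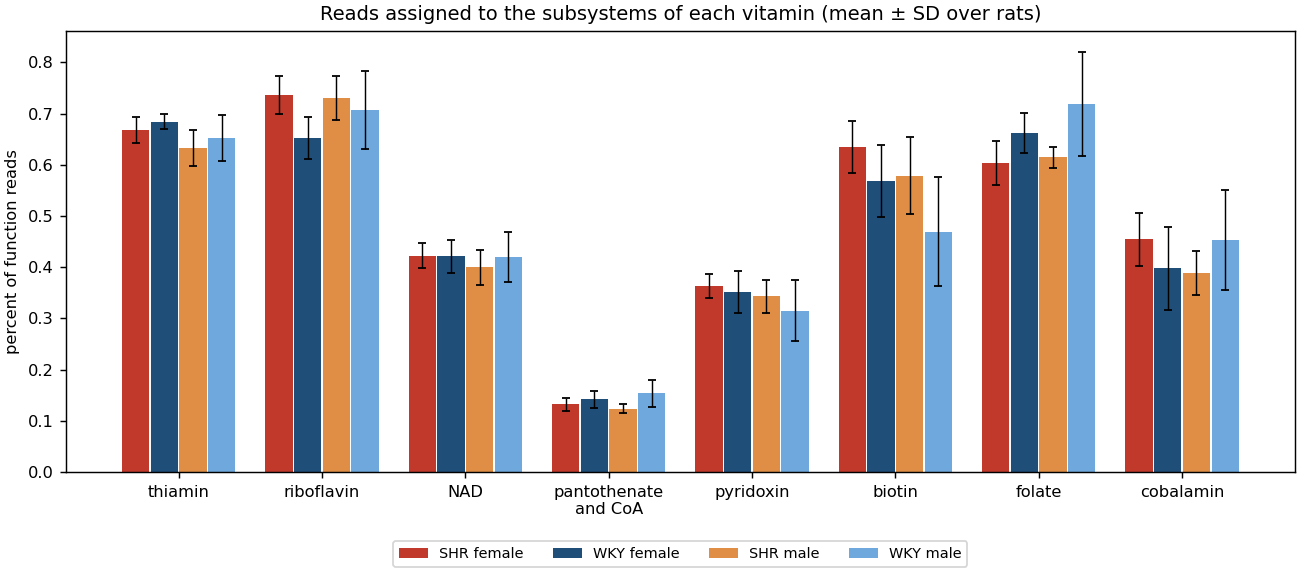
Percent of function reads assigned to the subsystems of each vitamin (bars, mean over rats; error bars, SD), with 10 SHR females, 9 WKY females, 7 SHR males and 7 WKY males. The riboflavin bar of SHR females stands above that of WKY females (0.736% and 0.652%), and the folate bar of SHR males stands below that of WKY males (0.615% and 0.718%). Bars of different vitamins sum different numbers of genes and are not to be compared.

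Each subsystem was tested between the strains by limma on log2(normalized value + 1) of all 1057 subsystems. A difference of these log2 values is SHR minus WKY, ± is its standard error, and a call is an adjusted p under 0.05 over all 1057. In females 3 of the 26 were called, 2 higher and 1 lower in SHR, beside 8.42% of all subsystems (3.69% higher and 4.73% lower). In males 1 of 26 was called, lower in SHR, beside 2.46% of all (1.8% lower). Averaged over the sexes, which uses the same rats again, 5 of 26 were called, 2 higher and 3 lower, beside 17.2% of all (6.72% higher and 10.5% lower). The members' counts were therefore close to the shares called in the whole table. Over all subsystems 39 of the 89 calls in females were higher in SHR, whereas edgeR with TMM scaling had 55 of 102 higher. The median log2 difference of the 19 well-read members was 0.05 in females and 0.00 in males, and that of all 650 well-read subsystems was -0.02 in females and -0.01 in males. In none of the 26 were the 2 strains of a sex free of overlap, which held for 0.378% of all subsystems in females and for 0.378% in males.

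**Figure D2:**
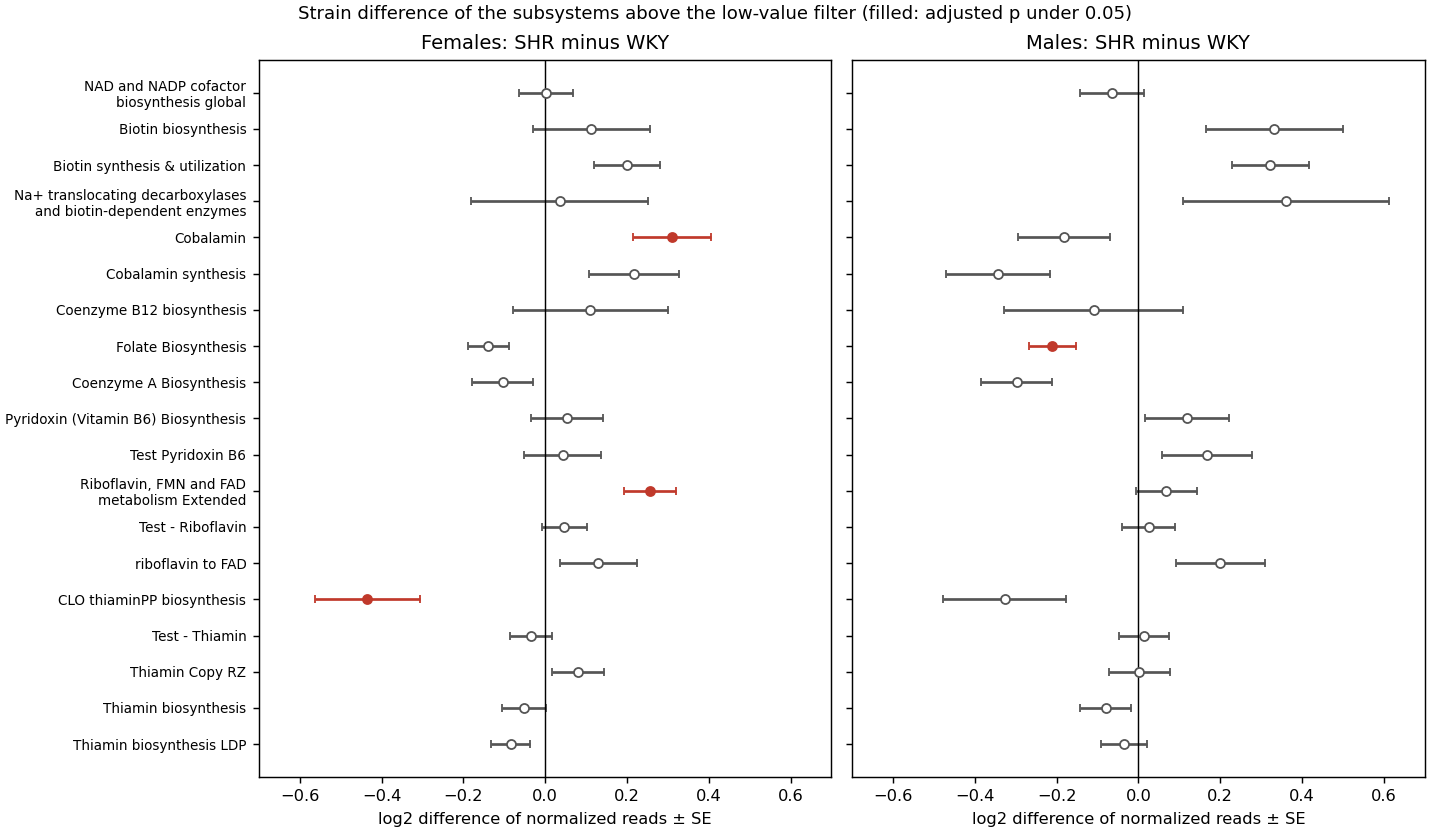
Difference of log2 normalized reads, SHR minus WKY, of the 19 well-read B vitamin subsystems in females (left panel) and males (right panel). Points are limma estimates, bars are standard errors, and filled points have an adjusted p under 0.05. The 3 filled points in females (Riboflavin Extended, Cobalamin and CLO thiaminPP) and the single filled point in males (Folate Biosynthesis) stand out, and all differences lie between -0.43 and 0.36.

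Riboflavin gave the rise in SHR females that held in the most alternative fits, 42 of 43 against 31 of 43 for Cobalamin. The subsystem Riboflavin, FMN and FAD metabolism Extended covers the making of FMN and FAD, the flavins of many redox enzymes. Its normalized reads ran from 1122 to 1547 with a median of 1309 in SHR females, and from 928 to 1313 with a median of 1081 in WKY females. They ran from 1178 to 1465 with a median of 1269 in SHR males, and from 1022 to 1379 with a median of 1267 in WKY males. The female groups overlapped, but 10 of 10 SHR females lay above the WKY median, while the male groups covered nearly the same range. The log2 difference was 0.26 ± 0.06 in females (limma adjusted p = 0.0118), a rise of 19.5%, and 0.07 ± 0.07 in males (limma adjusted p = 0.649). Averaged over the sexes it was 0.16 ± 0.05 (limma adjusted p = 0.0205). Whether the strain difference itself differed between the sexes did not pass (0.19 ± 0.10, limma adjusted p = 0.734). The call in females held in all 33 fits that left out 1 rat, and it was lost when every library was thinned to 95952 reads (0.23, limma adjusted p = 0.0619). Thinning also ended the averaged call (limma adjusted p = 0.0802).

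The other riboflavin subsystems were not called. Test - Riboflavin averaged 813 ± 50.4 normalized reads in SHR females and 787 ± 49.0 in WKY females (log2 difference 0.05 ± 0.06), and 835 ± 31.6 in SHR males and 827 ± 111 in WKY males (0.02 ± 0.06). The subsystem riboflavin to FAD, named for the last steps of flavin synthesis, averaged 103 ± 12.1 in SHR females and 94.4 ± 12.6 in WKY females (0.13 ± 0.09), and 101 ± 9.65 in SHR males and 88.0 ± 13.2 in WKY males (0.20 ± 0.11). Averaged over the sexes its difference of 0.17 ± 0.07 missed the threshold (limma adjusted p = 0.105).

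Biotin synthesis & utilization was higher in SHR when the sexes were averaged. Biotin is the cofactor of carboxylases and of some decarboxylases. Its normalized reads ran from 1251 to 1514 with a median of 1367 in SHR females, and from 955 to 1327 with a median of 1239.7 in WKY females. They ran from 1073 to 1505 with a median of 1275 in SHR males, and from 788 to 1374 with a median of 1010.5 in WKY males. In both sexes the groups overlapped while 10 of 10 SHR females and 7 of 7 SHR males lay above the WKY median of their sex. The averaged log2 difference was 0.26 ± 0.06 (limma adjusted p = 0.00394), a rise of 19.9%. Within a sex it missed the threshold, at 0.20 ± 0.08 in females (limma adjusted p = 0.109) and 0.32 ± 0.09 in males (limma adjusted p = 0.0514). It was called in females in a fit on the 2 female groups alone, and in males with the filter on low values, equal library totals, edgeR, DESeq2 or without the 3 shallowest libraries. The averaged call held in all 33 fits that left out 1 rat.

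The 2 other biotin subsystems varied more from rat to rat and were not called. Biotin biosynthesis averaged 349 ± 40.9 normalized reads in SHR females and 330.0 ± 83.6 in WKY females (log2 difference 0.11 ± 0.14), and 315 ± 59.4 in SHR males and 256 ± 79.0 in WKY males (0.33 ± 0.17, limma adjusted p = 0.265). The subsystem Na+ translocating decarboxylases and related biotin-dependent enzymes is named for membrane pumps that couple decarboxylation to sodium export. By its name it also holds other enzymes that use biotin. It averaged 219 ± 53.7 in SHR females and 219 ± 74.3 in WKY females (0.04 ± 0.22), and 189 ± 63.9 in SHR males and 150 ± 57.8 in WKY males (0.36 ± 0.25, limma adjusted p = 0.440). The SD of this member was over 20% of its mean in all 4 groups.

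Folate Biosynthesis was lower in SHR averaged over the sexes and in males. Folates carry one-carbon units for purine, thymidylate and methionine synthesis. Its normalized reads ran from 1804 to 1919 with a median of 1878 in SHR males, and from 1851 to 2620.4 with a median of 2088 in WKY males. They ran from 1711 to 2048 with a median of 1803 in SHR females, and from 1887 to 2215 with a median of 2015 in WKY females. The groups overlapped in both sexes, and 7 of 7 SHR males and 9 of 10 SHR females lay below the WKY median of their sex. The log2 difference was -0.21 ± 0.06 in males (limma adjusted p = 0.0395), a difference of -13.6%, and -0.14 ± 0.05 in females (limma adjusted p = 0.0784). Averaged over the sexes it was -0.17 ± 0.04 (limma adjusted p = 0.00232), and this call held in all 33 fits that left out 1 rat. The call in males was lost without SHR male 1, 2, 3, 6 or 7 or without WKY male 5 or 6 (limma adjusted p 0.00568 to 0.120 over the 33 fits). It was also lost in a fit on the 2 male groups alone (limma adjusted p = 0.225), with equal library totals (0.0534), in plain limma (0.0508) and after thinning (0.0836). In females the call was gained in a fit on the 2 female groups alone, without the 3 shallowest libraries, and without SHR female 9 or WKY male 5 or 6, so the sex in which folate was called depended on the fit. WKY males 5 and 6 were the highest of their group.

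CLO thiaminPP biosynthesis was lower in SHR females. Thiamin pyrophosphate is the cofactor of pyruvate dehydrogenase and transketolase. It was the member with the fewest reads among those well read, with 15 to 93 reads per library. Its normalized reads ran from 29.2 to 46.0 with a median of 36.4 in SHR females, and from 36.7 to 73.3 with a median of 48.4 in WKY females. They ran from 32.5 to 43.9 with a median of 37.6 in SHR males, and from 33.2 to 66.8 with a median of 53.3 in WKY males. The groups overlapped, and 10 of 10 SHR females and 7 of 7 SHR males lay below the WKY median of their sex. The log2 difference was -0.43 ± 0.13 in females (limma adjusted p = 0.0306), a difference of -26.0%. It was -0.33 ± 0.15 in males (limma adjusted p = 0.218) and -0.38 ± 0.10 averaged over the sexes (limma adjusted p = 0.00737). The call in females was lost without SHR female 1, 2 or 6 or without WKY female 2, 3 or 9 (limma adjusted p 0.0183 to 0.0775 over the 33 fits), while the averaged call held in all 33. Thinned to 95952 reads per library, the difference was -0.23 in females (limma adjusted p = 0.615) and -0.28 averaged (limma adjusted p = 0.333).

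The remaining thiamin subsystems differed little. Thiamin biosynthesis averaged 754 ± 33.8 normalized reads in SHR females and 784 ± 75.7 in WKY females, and 701 ± 44.8 in SHR males and 742 ± 73.7 in WKY males. Thiamin biosynthesis LDP averaged 303 ± 17.5 in SHR females and 321 ± 13.5 in WKY females, and 287 ± 20.98 in SHR males and 294 ± 18.03 in WKY males. Neither passed, with log2 differences of -0.05 ± 0.05 and -0.08 ± 0.05 in females (limma adjusted p = 0.605 and 0.286). Test - Thiamin averaged 579 ± 15.2 in SHR females and 594 ± 35.4 in WKY females, and 567.8 ± 44.4 in SHR males and 564 ± 68.2 in WKY males. Thiamin Copy RZ averaged 359 ± 18.3 in SHR females and 341 ± 36.5 in WKY females, and 333 ± 27.7 in SHR males and 333 ± 38.8 in WKY males. Their averaged differences were -0.01 ± 0.04 and 0.04 ± 0.05.

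Coenzyme A Biosynthesis was lower in SHR averaged over the sexes. Coenzyme A, built from pantothenate, carries acyl groups in energy and fatty acid metabolism. Its normalized reads ran from 337 to 410.5 with a median of 374 in SHR males, and from 386 to 587 with a median of 467 in WKY males. They ran from 361 to 481 with a median of 395 in SHR females, and from 324 to 495 with a median of 435 in WKY females. In males the groups overlapped only between 386 and 410.5, and 7 of 7 SHR males lay below the WKY median. In females the lowest rat was a WKY rat, and 9 of 10 SHR females lay below the WKY median. The averaged log2 difference was -0.20 ± 0.06 (limma adjusted p = 0.0142), a difference of -13.0%, and the call held in all 33 fits that left out 1 rat. It was -0.30 ± 0.09 in males (limma adjusted p = 0.0533) and -0.10 ± 0.08 in females (limma adjusted p = 0.420).

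NAD and vitamin B6 subsystems were not called in any strain comparison. NAD and NADP cofactor biosynthesis global averaged 1288 ± 90.0 normalized reads in SHR females and 1291 ± 146 in WKY females (log2 difference 0.00 ± 0.07), and 1218 ± 128 in SHR males and 1277 ± 162 in WKY males (-0.06 ± 0.08). Pyridoxin (Vitamin B6) Biosynthesis averaged 523 ± 44.3 in SHR females and 507 ± 69.9 in WKY females (0.05 ± 0.09), and 491 ± 52.1 in SHR males and 456 ± 85.8 in WKY males (0.12 ± 0.10). Test Pyridoxin B6 averaged 583 ± 46.3 in SHR females and 571 ± 94.5 in WKY females (0.04 ± 0.09), and 554 ± 63.4 in SHR males and 499 ± 98.4 in WKY males (0.17 ± 0.11). All of these differences lay within the spread of the rats of a group.

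Strain differences of the well-read cobalamin subsystems had opposite signs in females and males, and no test of strain by sex passed. The subsystem named Cobalamin ran from 418 to 506 normalized reads with a median of 459.8 in SHR females, and from 248 to 472 with a median of 387 in WKY females. It ran from 345 to 470.3 with a median of 383 in SHR males, and from 385 to 615 with a median of 444 in WKY males. The groups overlapped, with 10 of 10 SHR females above the WKY female median and 6 of 7 SHR males below the WKY male median. The log2 difference was 0.31 ± 0.10 in females (limma adjusted p = 0.0377), a rise of 23.97%, and -0.18 ± 0.11 in males (limma adjusted p = 0.386). The call in females was lost without SHR female 2, 4, 6, 7, 8 or 10 or without WKY female 2, 3, 5 or 9 (limma adjusted p 0.0209 to 0.0919 over the 33 fits). It was also lost in a fit on the 2 female groups alone (limma adjusted p = 0.0649) and without the 3 shallowest libraries (0.0521).

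Cobalamin synthesis had differences of the same signs and was not called. In SHR males it ran from 307 to 404 normalized reads with a median of 348. In WKY males it ran from 363 to 664 with a median of 414, and WKY males 2 and 3 were highest (664 and 553). It averaged 393 ± 57.3 normalized reads in SHR females and 339 ± 59.0 in WKY females (log2 difference 0.22 ± 0.11, limma adjusted p = 0.213), and 355 ± 31.9 in SHR males and 459 ± 112 in WKY males (-0.34 ± 0.13, limma adjusted p = 0.123). The signed strain difference, SHR minus WKY, was higher in females than in males by 0.49 ± 0.15 for Cobalamin (unadjusted p = 0.00212) and by 0.56 ± 0.17 for Cobalamin synthesis (unadjusted p = 0.00216), and neither passed over all subsystems (limma adjusted p = 0.286 for both). Coenzyme B12 biosynthesis, named for the active cofactor, averaged 533 ± 121 in SHR females and 504 ± 166 in WKY females (0.11 ± 0.19), and 436 ± 134 in SHR males and 470 ± 144 in WKY males (-0.11 ± 0.22).

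**Figure D3:**
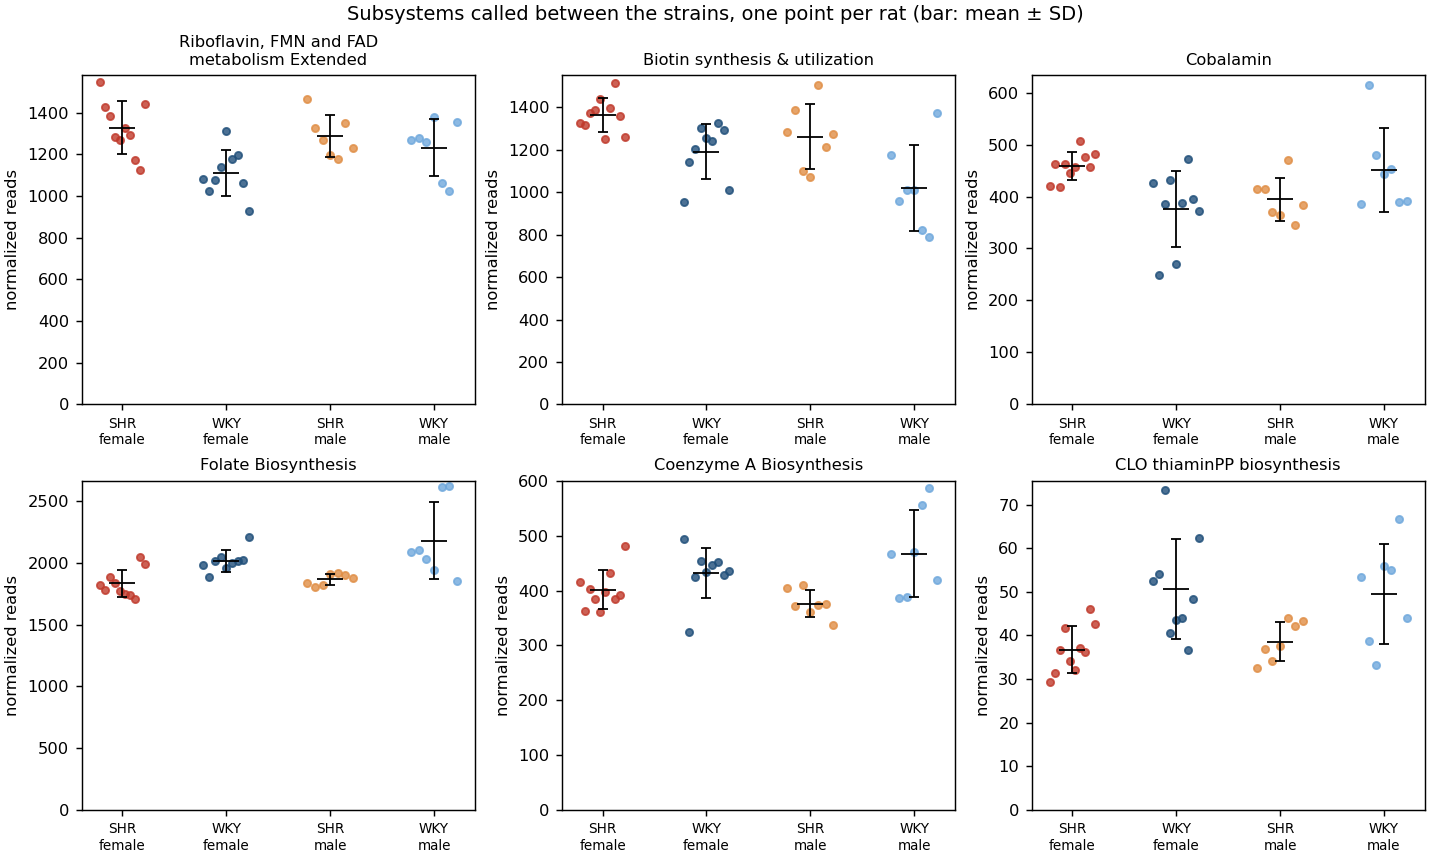
Normalized reads of the 6 B vitamin subsystems called in at least 1 strain comparison, 1 point per rat, with the mean and SD as bars (10 SHR females, 9 WKY females, 7 SHR males and 7 WKY males). Points of SHR and WKY overlap in every panel. Biotin synthesis & utilization lies higher and Folate Biosynthesis lower in SHR in both sexes, while Cobalamin lies higher in SHR females and not in SHR males.

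Between the sexes no B vitamin subsystem was called. In SHR 0 of 26 were called by limma, by edgeR and by DESeq2, beside 0% of all subsystems by limma, and 1 of 26 had an unadjusted p under 0.05, beside 4.54% of all. That member was Cobalamin (female minus male 0.22 ± 0.10, unadjusted p = 0.0392), for which 10 of 10 SHR females lay above the SHR male median. In WKY 0 of 26 were called by limma, beside 0.662% of all, and 7 of 26 had an unadjusted p under 0.05, beside 18.3% of all. The lowest was that of Cobalamin synthesis, with a female minus male difference of -0.42 ± 0.12 (limma adjusted p = 0.0631) and 8 of 9 WKY females below the WKY male median. edgeR and DESeq2 each called this 1 member. The test of strain by sex called 0 of 26 by limma, by edgeR and by DESeq2, beside 0% of all by limma, and 3 of 26 had an unadjusted p under 0.05, beside 7.76% of all. The third, FolateExerciseMaizeClassVDC, rested on at most 6 reads per rat.

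Neighbouring pathways were read for context. Their differences and counts below are averaged over the sexes unless a sex is named, with limma adjusted p over all subsystems. Of 8 subsystems that use B12, 2 were called higher and 1 lower in SHR, beside 6.72% higher and 10.5% lower of all subsystems, to which the counts below also compare. Lysine fermentation MCB 432, in which a B12-dependent aminomutase acts, averaged 116 and 118 normalized reads in SHR females and males and 71.3 and 72.7 in WKY females and males (log2 difference 0.74 ± 0.14, limma adjusted p = 0.000548). Glycerol fermentation to 1,3-propanediol, whose glycerol dehydratase is B12-dependent in many bacteria, averaged 24.5 and 28.2 in SHR females and males and 32.3 and 89.1 in WKY females and males (-0.88 ± 0.20, limma adjusted p = 0.00348). Both averaged calls held in all 33 fits that left out 1 rat. Within a sex, the glycerol subsystem was called lower in SHR males (-1.43 ± 0.31, limma adjusted p = 0.00938) and not called in females. It was also called between the sexes of WKY (female minus male -1.29 ± 0.29, limma adjusted p = 0.0170). The other higher call, Lysine fermentation (0.39 ± 0.13, limma adjusted p = 0.0417), held in 17 of 33. It was lost without SHR female 2, 3, 4, 5 or 6, SHR male 1, 2, 3, 5 or 7, WKY female 1, 2, 3 or 9, or WKY male 5 or 6. The B12 users therefore did not move one way.

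Uptake was the other neighbour. Its list took subsystems named for ECF class, nickel, cobalt, Ton and Tol or TonB, so it covers metals and other cargo beside vitamins. Of 4 uptake subsystems 2 were called lower in SHR and 0 higher. ECF class transporters, which import riboflavin, biotin, folate, thiamin, cobalamin and metals in many Firmicutes, averaged 264 and 287 normalized reads in SHR females and males and 358 and 399 in WKY females and males (-0.43 ± 0.11, limma adjusted p = 0.00750), and the call held in all 33 fits. Transport of Nickel and Cobalt, the metal of cobalamin among its cargo (-0.32 ± 0.11, limma adjusted p = 0.0441), held in 16 of 33. It was lost without SHR female 1, 2, 3, 4, 5 or 7, SHR male 1, 2, 5, 6 or 7, WKY female 1, 3 or 9, or WKY male 1, 5 or 6. Of 28 subsystems of other cofactors 0 were called higher and 6 lower. Pterin carbinolamine dehydratase had the smallest adjusted p (-0.95 ± 0.21, limma adjusted p = 0.00257). Its group means were only 0.24 to 1.73 normalized reads. Pterin metabolism 3 differed by -0.81 ± 0.22 (limma adjusted p = 0.0116) and Ubiquinone Biosynthesis by -0.78 ± 0.22 (limma adjusted p = 0.0125), and without WKY male 6 the other cofactors lost 3 of their 6 calls. Of 16 precursor pathways 2 were called higher and 2 lower, the lower including Purine conversions (-0.17 ± 0.04, limma adjusted p = 0.00737), which held in all 33 fits. Both higher calls, Cysteine Biosynthesis (0.28 ± 0.09, limma adjusted p = 0.0295) and Cysteine Biosynthesis, MCB 432 (0.26 ± 0.08, limma adjusted p = 0.0323), were lost without SHR male 1 or 3 or WKY male 2 or 5, and the second also without WKY male 6 or WKY female 9. Pentose phosphate pathway (-0.13 ± 0.05, limma adjusted p = 0.0489) held in 10 of 33 fits. It was lost without SHR female 2, 3, 4, 5, 6, 7 or 8, SHR male 1, 2, 3, 4 or 5, WKY female 1, 2, 3, 5, 8 or 9, or WKY male 1, 3, 4, 5 or 6. Of 37 translation subsystems 0 were called higher and 1 lower, Ribosome biogenesis bacterial (-0.16 ± 0.04, limma adjusted p = 0.00232). The median difference of the well-read members was -0.35 for other cofactors and -0.13 for uptake, against 0.04 for the B vitamin subsystems and 0.00 for all.

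The subsystems were set beside the shares of 3 bacterial lists in the same rats. Bacteroidales, an order of polysaccharide degraders, took 27.9 ± 9.70% of assigned reads in SHR females and 24.9 ± 12.9% in WKY females, and 21.4 ± 11.6% in SHR males and 14.3 ± 11.3% in WKY males. Lactobacillaceae, the lactic acid bacteria, took 6.03 ± 5.24% in SHR females and 12.8 ± 8.80% in WKY females, and 8.03 ± 4.49% in SHR males and 17.4 ± 9.46% in WKY males. Akkermansia, a mucin degrader, took 0.50 ± 0.444% in SHR females and 5.91 ± 7.59% in WKY females, and 1.73 ± 2.96% in SHR males and 4.72 ± 6.38% in WKY males. Correlations were taken on log2 scales within 17 SHR and within 16 WKY rats, with permutation p-values adjusted over 3900 pairs of 650 subsystems, 3 lists and 2 strains. Shares and relative reads both sum to a fixed total, and taxon and function reads come from the same libraries, so the pairs are not independent. The permutations treated all rats of a strain alike. SHR females 9 and 10 and SHR males 3 and 4, numbered consecutively, held 95952 to 192919 function reads and had Bacteroidales shares of 10.1% to 14.9%. SHR males 6 and 7 had 13.4% and 17.7% with 298212 and 389859 reads. The part of depth or numbering in the SHR correlations was not tested.

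Of 114 pairs of a member and a list, 40 passed by Pearson's r and 36 by both Pearson's r and Spearman's rho. With Bacteroidales, 7 of 19 members were positively correlated in SHR and 9 of 19 in WKY, beside 17.8% and 18.3% of the 650 subsystems. In the negative direction 1 and 3 members passed, beside 23.1% and 27.2%, which makes 8 and 12 in either direction, beside 40.9% and 45.5%. With Lactobacillaceae, 5 and 7 members were negatively correlated, beside 12.5% and 16.9%, and 2 and 2 positively, beside 23.5% and 23.1%. With Akkermansia 0 members passed in SHR and 1 in WKY in the positive direction, beside 4.31% and 4.77%, and 1 and 2 in the negative, beside 2.77% and 2.92%, against 7.08% and 7.69% of all subsystems in either direction. Whether the members' share exceeded that of all subsystems was not tested.

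**Figure D4:**
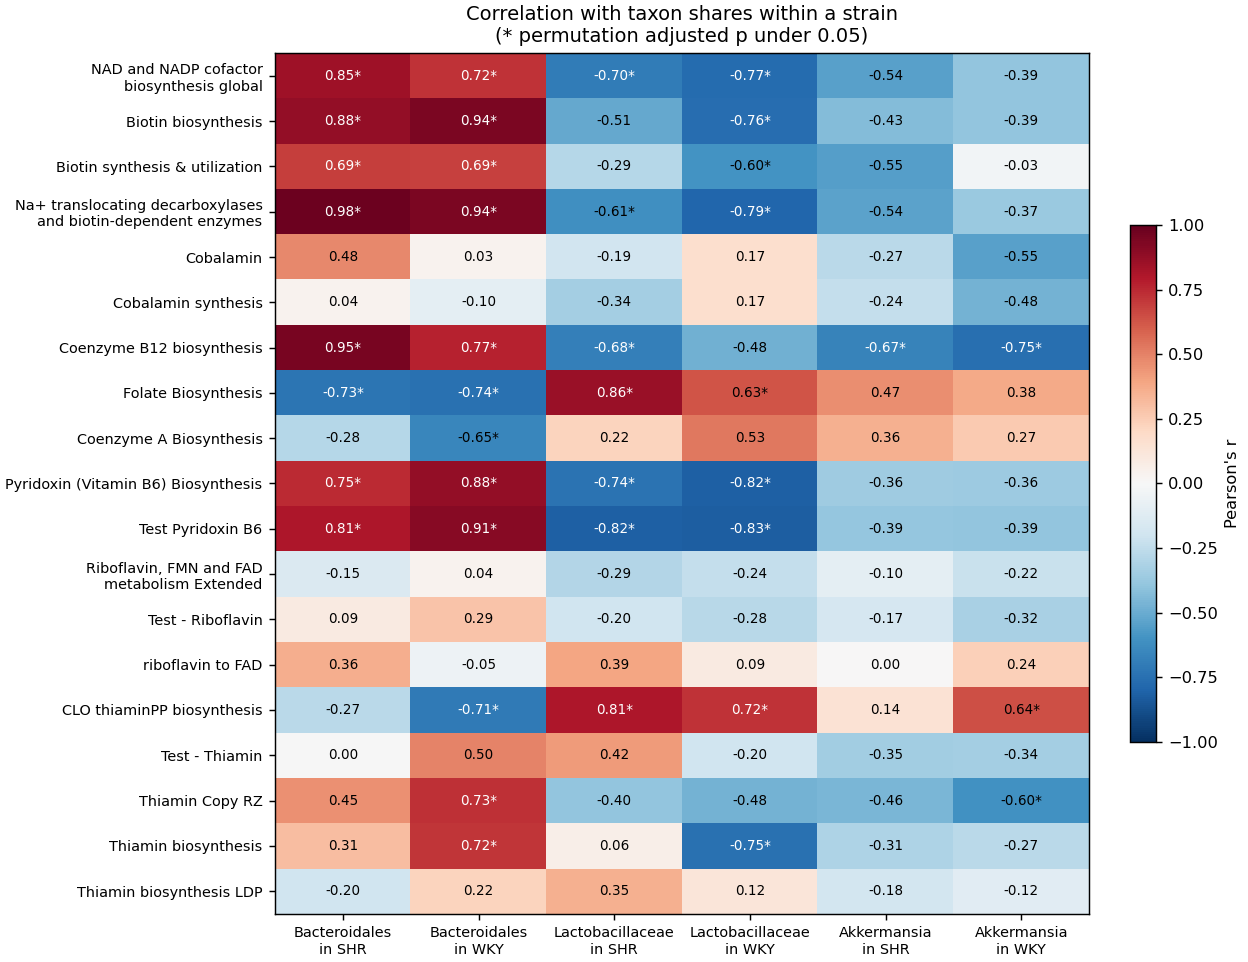
Pearson's r between log2 of relative reads of each of the 19 well-read B vitamin subsystems and the log2 share of Bacteroidales, Lactobacillaceae or Akkermansia within 17 SHR rats and within 16 WKY rats. Red is positive, blue is negative, and an asterisk marks a permutation adjusted p under 0.05. Biotin, pyridoxin, NAD and Coenzyme B12 rows are red for Bacteroidales in both strains, and Folate Biosynthesis is blue for Bacteroidales and red for Lactobacillaceae.

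Na+ translocating decarboxylases and related biotin-dependent enzymes, called the biotin-dependent decarboxylases below, tracked Bacteroidales most closely. Pearson's r was 0.980 and Spearman's rho 0.966 in SHR (permutation adjusted p = 0.000264 and 0.000298), and r was 0.941 and rho 0.953 in WKY (permutation adjusted p = 0.000264 and 0.000298). Without the 2 rats farthest from the median share r was 0.978 in SHR and 0.934 in WKY. Within a sex r was 0.983 in SHR females, 0.940 in WKY females, 0.976 in SHR males and 0.923 in WKY males. Bacteroidales shares left a gap between 20.6% and 29.7% in SHR and between 19.1% and 28.8% in WKY, so r was also taken on each side of it. Below the gap it was 0.949 in 8 SHR rats and 0.877 in 10 WKY rats, and above it 0.850 in 9 SHR rats and 0.857 in 6 WKY rats. On both sides of the gap r was thus positive, and these values were not tested.

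Other members followed Bacteroidales less evenly. Biotin synthesis & utilization had r of 0.690 in SHR and 0.685 in WKY (permutation adjusted p = 0.00989 and 0.0169, rho 0.701 and 0.638). Without the 2 farthest rats r was 0.780 and 0.536, the second no longer passing (permutation adjusted p = 0.145). The means of this member and of the Bacteroidales share were higher in SHR in both sexes. The part of that share in the strain difference was not tested. Biotin biosynthesis had r of 0.876 in SHR and 0.939 in WKY (permutation adjusted p = 0.000264 for both, rho 0.909 and 0.938), with r of 0.642 and 0.912 below the gap and 0.641 and 0.615 above it. Test Pyridoxin B6 had r of 0.805 in SHR and 0.908 in WKY (permutation adjusted p = 0.00172 and 0.000264, rho 0.701 and 0.918), with 0.802 and 0.851 below the gap and -0.262 and 0.601 above it. Coenzyme B12 biosynthesis had r of 0.953 in SHR and 0.768 in WKY (permutation adjusted p = 0.000264 and 0.00436, rho 0.833 and 0.774), but above the gap r was 0.015 in SHR and 0.231 in WKY, and below it 0.945 and 0.270. NAD and NADP cofactor biosynthesis global had r of 0.848 in SHR and 0.719 in WKY (permutation adjusted p = 0.000534 and 0.00968, rho 0.816 and 0.768), with 0.712 and 0.563 below the gap and 0.127 and -0.256 above it. Each side of the gap spans a narrower range of shares and holds few rats, which by itself can lower r. The values on each side were not tested and cannot show what the pooled r rests on.

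Folate Biosynthesis and CLO thiaminPP biosynthesis were positively correlated with Lactobacillaceae. For folate r was 0.862 in SHR and 0.629 in WKY (permutation adjusted p = 0.000264 and 0.0317, rho 0.821 and 0.712), and without the 2 rats farthest from the median share it was 0.836 and 0.646, the second no longer passing (permutation adjusted p = 0.0514). With Bacteroidales its r was -0.728 in SHR and -0.745 in WKY, with -0.623 and -0.677 below the Bacteroidales gap and 0.569 and -0.118 above it. On the normalized reads used for the strain tests, both WKY relations of folate missed the threshold, at r of 0.454 with Lactobacillaceae (permutation adjusted p = 0.173) and -0.589 with Bacteroidales (permutation adjusted p = 0.0508), while the SHR ones passed, at 0.725 and -0.592 (permutation adjusted p = 0.00676 and 0.0433). For CLO thiaminPP r was 0.812 in SHR and 0.721 in WKY (permutation adjusted p = 0.00107 and 0.0113, rho 0.801 and 0.750), and 0.729 and 0.727 without the 2 farthest rats. For Lactobacillaceae shares, the widest gap leaving at least 6 rats on each side lay between 4.51% and 4.90% in SHR. In WKY it lay between 9.49% and 12.4%. Wider gaps left fewer rats on one side. In both strains the widest of all lay above the gap used, so r above the gap used still spans it. In SHR r below and above the gap used was 0.672 and 0.878 for folate and 0.666 and 0.802 for CLO thiaminPP. In WKY r below and above the gap used was 0.105 and 0.497 for folate and -0.178 and 0.106 for CLO thiaminPP. The values on each side of these gaps were not tested. In WKY CLO thiaminPP also passed with Akkermansia (r 0.642, rho 0.615, permutation adjusted p = 0.0321) and with Bacteroidales (r -0.707, rho -0.747, permutation adjusted p = 0.0129). On the 2 sides of the gap chosen the same way in those shares, r was 0.729 and 0.667 with Akkermansia. With Bacteroidales it was -0.452 and -0.296. Without the 2 farthest rats r was 0.457 with Akkermansia (permutation adjusted p = 0.244) and -0.662 with Bacteroidales (permutation adjusted p = 0.0482). In SHR its r was 0.142 with Akkermansia and -0.267 with Bacteroidales, and neither passed. Both members and the mean shares of Lactobacillaceae and Akkermansia were lower in SHR, and the part of those shares in the strain differences was not tested. Riboflavin, FMN and FAD metabolism Extended passed with none of the 3 lists, with r between -0.29 and 0.04. Its r with Bacteroidales was 0.645 in SHR and 0.146 in WKY below the gap, and -0.784 in SHR and -0.797 in WKY above it. These values come from few rats, were not tested and cannot show what the pooled r rests on.

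**Figure D5:**
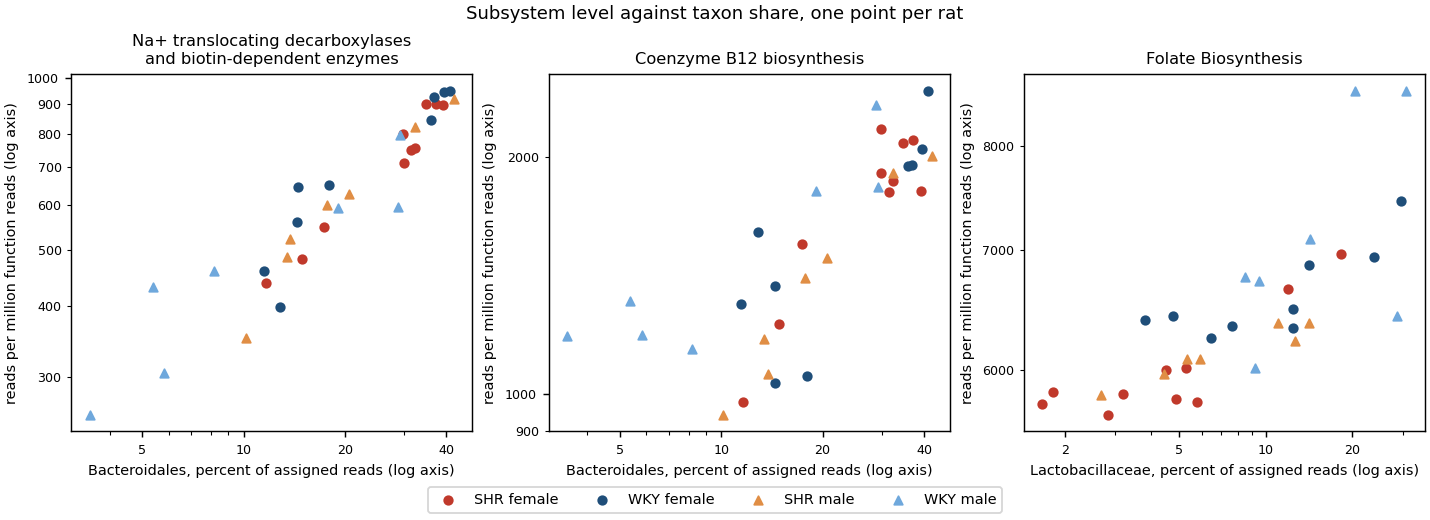
Reads per 1000000 function reads of 3 B vitamin subsystems against the share of a bacterial list in the same rat, both on log axes, 1 point per rat (circles, females; triangles, males; red and orange, SHR; dark and light blue, WKY). The decarboxylases climb with Bacteroidales on both sides of the gap in its shares (r 0.980 in SHR and 0.941 in WKY). Coenzyme B12 biosynthesis climbs with Bacteroidales less evenly (r 0.953 and 0.768), and Folate Biosynthesis climbs with Lactobacillaceae (r 0.862 and 0.629).

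Subsystems of 1 vitamin did not always move together. Of 40 tests of 20 same-vitamin pairs in 2 strains, 17 passed by Pearson's r and 15 by both measures, with permutation p-values adjusted over the 40. The vitamin B6 pair had r of 0.968 in SHR and 0.988 in WKY (permutation adjusted p = 8e-05 for both, rho 0.919 and 0.965). Biotin biosynthesis and the biotin-dependent decarboxylases had r of 0.895 and 0.964 (permutation adjusted p = 8e-05 for both, rho 0.909 and 0.929). Whether such pairs count the same genes is not given in the sources used here. Cobalamin and Cobalamin synthesis had r of 0.197 in SHR and 0.908 in WKY (permutation adjusted p = 0.510 and 8e-05, rho 0.245 and 0.832), a difference that was not tested. CLO thiaminPP biosynthesis and Thiamin biosynthesis had r of 0.357 in SHR and -0.626 in WKY (permutation adjusted p = 0.239 and 0.0266, rho 0.446 and -0.697). Riboflavin Extended and riboflavin to FAD were not correlated in a way that passed, with r of -0.360 and -0.264 (permutation adjusted p = 0.239 and 0.418, rho -0.179 and -0.309).

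The authors' deposited tables hold rows with an adjusted p up to 0.00968 and list 3 B vitamin subsystems in their female model and 3 in their general model, and none in their male model. The direction of their fold changes is not stated; the signs were opposite to SHR minus WKY for 85 of 85 rows of the authors' deposited table for females and for 139 of 148 rows of the authors' deposited table of the general model. In the authors' deposited table for females, Riboflavin, FMN and FAD metabolism Extended had a log2 fold change of -0.26 (adjusted p 0.000569), Folate Biosynthesis 0.14 (adjusted p 0.00089) and Biotin synthesis & utilization -0.20 (adjusted p 0.00602). In the authors' deposited table of the general model, Folate Biosynthesis had 0.25 (adjusted p 0.000322), Biotin synthesis & utilization -0.42 (adjusted p 0.000501) and Riboflavin, FMN and FAD metabolism Extended -0.11 (adjusted p 0.00468). The last fold change had a standard error of 0.0694 in the authors' deposited table, too large for its p-value to be a test of that fold change, and what the p-values of the general model test is not given in the sources used here. With the sign turned, riboflavin and biotin are higher and folate lower in SHR in the authors' deposited table for females.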

How the data were processed

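DNA of cecal contents was extracted with a bead-based soil kit and made into Nextera libraries, per the labels' protocols. FastQC 0.11.5, cutadapt 2.6, Trimmomatic 0.36 and DESeq2 were used, per the submitters' processing notes. Which tool and database assigned taxa and subsystems is not given in the sources used here. The authors deposited, for each subsystem and rat, a signal, the read count divided by a size factor (the normalized reads), and taxon tables in percent of assigned reads. The authors also deposited log2 fold changes with standard errors, mean normalized counts, p-values and adjusted p-values of their own models.

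Values of the function table were whole multiples of the worth of 1 read in 100% of values, within 0.01 read, which gave back the reads for depth, relative reads per library and the alternatives with DESeq2 1.42.0 and edgeR 4.0.16. The main test was limma 3.58.1 in R 4.3.3 (trended, robust) on log2(normalized value + 1) in 1 fit of 4 group means over all 33 rats, 2-sided, with Benjamini-Hochberg adjustment over 1057 subsystems, of which 1024 had a read. For subsystems with few reads this scale makes a change look smaller than it is. A subsystem was well read where at least 7 rats reached a normalized value of 10. Correlations used 100000 permutations (scipy 1.17.1 and numpy 2.4.6 in Python 3.11.15, with tables read by pandas 2.3.3 and figures drawn by matplotlib 3.10.9), with 1e-05 the smallest p they can give. The taxon lists hold 10 genera (Lactobacillaceae), 12 genera (Bacteroidales) and 1 genus (Akkermansia), as percent of all assigned reads, where the design had named bacterial reads.

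The members, lists and tests were chosen with earlier results of these data known. Every member was named; full statistics are given for members called in at least 1 comparison, and neighbouring lists name at most 5 called subsystems by adjusted p. Rats are named where leaving them out ends a call. The split of rats at a gap in taxon shares was added after seeing the data. The gap was the widest on the log2 scale among those leaving at least 6 rats on each side. The fits were tested on simulated data. No column of values lacked a group. Limits on values of 0 cover counting error only, and the labels name no molecular identifiers, so several reads may come from 1 molecule. Alternatives were the pseudocount, a filter, equal totals, edgeR, DESeq2, plain limma, fits on the compared groups, leaving out rats or the 3 shallowest libraries, and thinning.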

Additional observations from a re-analysis of the deposited data

Results flagged for a closer look

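Each of the 19 well-read subsystems was checked in each of the 4 groups for a rat set apart from the rest of its group by Dixon's test, and 3 of 76 groups held one, where chance marks about 1 in 20 groups. Cobalamin was highest in WKY male 2, at 614.56 normalized reads, against 385 to 479 in the other WKY males. Coenzyme A Biosynthesis was lowest in WKY female 2, at 323.699 normalized reads, against 426 to 495 in the other WKY females. Folate Biosynthesis was highest in WKY female 9, at 2214.663 normalized reads, against 1887 to 2050.3 in the other WKY females.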

How the results depend on the processing

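No call of a B vitamin subsystem changed direction under any alternative run. The count in females, 3 in the fit reported, was 1 after thinning each library to 95952 reads, an alternative chosen after seeing the data, and 1 to 4 when 1 rat was left out. The fit on the female groups alone called 4, losing Cobalamin and gaining Biotin synthesis & utilization and Folate Biosynthesis, and that without the 3 shallowest libraries lost Cobalamin and gained Folate Biosynthesis. The count in males, 1 in the fit reported, was 3 with the filter on low values, 3 with edgeR, 4 with DESeq2, 2 without the 3 shallowest libraries, 0 in limma without trend or robust estimation, 0 in a fit on the male groups alone, 0 after thinning, and 0 to 3 when 1 rat was left out. The members gained were Biotin synthesis & utilization and Coenzyme A Biosynthesis with the filter and with edgeR, and also Cobalamin synthesis with DESeq2, and Biotin synthesis & utilization without the 3 shallowest libraries. With equal totals it was again 1, but Biotin synthesis & utilization in place of Folate Biosynthesis. The averaged count of 5 was 3 after thinning and 5 in each fit without 1 rat. Between the sexes of WKY the count of 0 was 1 with the filter, 1 with edgeR, 1 with DESeq2, and 0 to 3 when 1 rat was left out (3 without WKY male 7, and 1 without WKY female 1 or 9). Of the correlations with taxa 40 passed, against 32 without the 2 farthest rats and 41 on normalized reads, of which 37 were shared. The 3 lost on normalized reads were Folate Biosynthesis with Lactobacillaceae and with Bacteroidales and Coenzyme A Biosynthesis with Bacteroidales, all in WKY. The 4 gained were Cobalamin with Bacteroidales and Biotin synthesis & utilization with Akkermansia in SHR, and Test - Thiamin with Bacteroidales and Cobalamin with Akkermansia in WKY.

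Over all subsystems, calls in females (89) were 150 without the 3 shallowest libraries and 42 after thinning. Calls in males (26, of which 7 higher) were 50 with the filter, 83 with DESeq2 (31 higher), 2 in the fit on males alone and 0 after thinning. Averaged calls (182) were 96 after thinning. Calls between the sexes of WKY (7, of which 0 higher) were 23 with the filter, 34 with edgeR, 70 with DESeq2 (28 higher), 12 without the 3 shallowest libraries, 16 after thinning and 1 in the fit on WKY alone. The causes of these changes were not tested. Thinning leaves fewer reads and was 1 random draw, and the smaller fits hold fewer rats. No paired analysis was possible because the labels link no rat of 1 group to a rat of another. CLO thiaminPP biosynthesis had at most 93 reads in a rat, the fewest of the 19 well-read members, and the other 7 members had at most 6.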
